A study of Mus musculus with 6 samples.

Results

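The NRF2 pathway members described here are 10 genes, *Nfe2l2*, *Keap1*, *Nqo1*, *Hmox1*, *Txnrd1*, *Srxn1*, *Slc7a11*, *Sqstm1*, *G6pdx* and *Osgin1*, out of the 54532 genes in a table of mouse kidney RNA. They were chosen by symbol, each matched to 1 row through its Ensembl identifier in GENCODE M21 (GRCm38), and genes of the glutathione pathway were left out by the same rule. Whole kidneys came from KsprtTA mice, which lack the transgene (Control; wild type in the sample labels), and from KsprtTA/TRE-adiponectin mice (KSPAPN). All mice received chow with doxycycline at 600 mg/kg for 4 days, so that rtTA and the drug were shared and the groups differed in the transgene. The Ksp promoter drives rtTA along the tubular epithelium, collecting duct included, and non-epithelial cells of the kidney are outside this system. RNA of 3 mice was pooled for each of the 6 libraries, 3 per group, so that each group stands for 9 mice and the spread is one between pools. Their ages are not given in the sources read. Gene counts summed to 17183358 to 18205023 per Control library and to 18150442 to 20871173 per KSPAPN library.

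NRF2, the product of *Nfe2l2*, is a transcription factor that pairs with small MAF proteins and binds antioxidant response elements near genes of detoxification, redox balance and NADPH supply. In unstressed cells KEAP1 holds NRF2 and hands it to a CUL3 ubiquitin ligase, and electrophiles or oxidants that modify cysteines of KEAP1 let NRF2 accumulate. The pathway is widely studied in the kidney, where tubular cells carry a heavy load of oxidative metabolism and of filtered or secreted toxins. Since NRF2 is governed largely through the stability of its protein, mRNA of *Nfe2l2* is not a reading of its activity. Protein was not analysed here.

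*Adipoq*, the overexpressed gene, was checked as a test of the labels. Its reads were 2, 0 and 2 in the 3 Control libraries and 24629, 17483 and 26811 in KSPAPN, as the labels of all 6 libraries state. Markers of kidney were abundant in every library. *Slc34a1*, a phosphate transporter of the proximal tubule, had 980 to 1368 FPKM (reads scaled by gene length and library size, as the authors computed it), *Umod* of the thick ascending limb 542 to 795, and *Aqp2* of the collecting duct 227 to 537. The extraction text of the labels speaks of liver. Of 6 hepatocyte genes, *Alb* was at 0.275 to 4.46 FPKM, while *Ttr*, the most abundant of them, was at 38.3 to 145 FPKM.

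No member was called between the groups in the main analysis, which used edgeR. At an adjusted p under 0.05 from edgeR's quasi-likelihood test, 0 of the 9 members tested were higher and 0 were lower in KSPAPN, where 2.65% of all 16017 genes tested were called (0.393% or 63 genes higher and 2.25% or 361 genes lower, and 71 and 195 genes when libraries were scaled by total counts only). At an unadjusted p under 0.05, 3 members were lower, *Txnrd1*, *Sqstm1* and *Osgin1*, beside 11.2% of all genes tested, and 0 were higher, beside 7.52%. DESeq2 called 1 member, *Osgin1*, as lower and 0 as higher, where it called 5.51% of 13843 genes lower and 1.53% higher, and limma on log2 FPKM called 0. edgeR without its filter on low counts also called *Osgin1* lower, beside 3.53% of 29418 genes. The median log2 fold change of the 9 was -0.15, beside 0.012 for all genes tested. When libraries were scaled by total counts only, both medians were higher, at -0.082 for the members and 0.081 for all genes. Without Control replicate 2 they were -0.068 and 0.007. Removing the trend against GC content and gene length, an alternative chosen after seeing the data, gave -0.087 and 0.0089. *Slc7a11* had too few reads for the filter and is in these counts only where the filter was left out, with an adjusted p of 0.999.

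**Figure D1:**
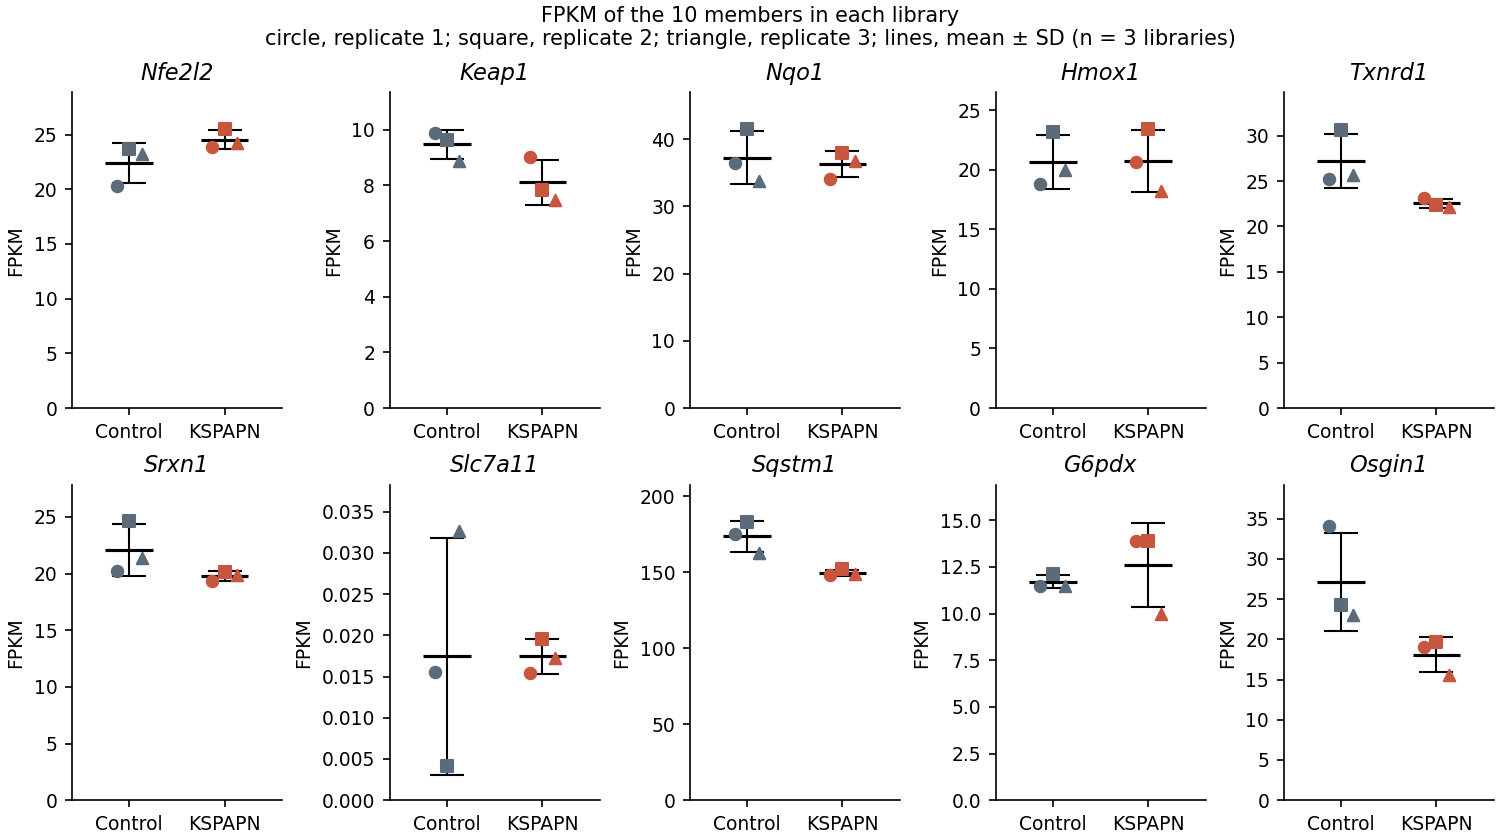
FPKM of each of the 10 members in each library, on axes that start at 0, with 3 Control and 3 KSPAPN libraries per panel and lines for mean and SD. *Osgin1*, *Sqstm1*, *Txnrd1* and *Srxn1* lie lower in all 3 KSPAPN libraries than in any Control library, *Nfe2l2* lies slightly higher, and the groups of the other 5 overlap.

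Per length, the members spanned a wide range of expression. *Sqstm1* was the most abundant, at a mean of 162 ± 14.7 FPKM (SD, n = 6 libraries), above 98.5% of the genes tested. *Nqo1* followed at 36.8 ± 2.84 FPKM, and the lowest *Sqstm1* library was above the highest *Nqo1* library. *Txnrd1* (24.8 FPKM), *Nfe2l2* (23.5), *Osgin1* (22.6), *Srxn1* (20.9) and *Hmox1* (20.7) came next, and each overlapped its neighbour in this order across libraries. The order of these genes differed between the groups. *Osgin1* had a mean of 27.1 FPKM in Control, near *Txnrd1* at 27.2, and 18.1 in KSPAPN, the lowest of them. *G6pdx* at 12.1 ± 1.51 FPKM and *Keap1* at 8.79 ± 0.963 were lower without overlap. *Slc7a11* was last, at 0.0175 FPKM.

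Promoter sequence is shown for the members in which a motif of the antioxidant response element type was found, except *G6pdx*. Binding at such motifs is what defines NRF2 targets as a class. In RefSeq windows of 300 bases (250 before and 50 after a transcription start, GRCm38.p6), the core TGACNNNGC and the related AP-1 type motif TGACTCA were searched on both strands. TGACTCA followed by GC would match both, while TGAGTCA followed by GC would match TGACTCA alone. The latter letters stand in the printed sequence of *Srxn1*, at the match nearer to the start, and on the opposite strand in that of *Osgin1*. The core was in 12.4% of all 32851 windows, TGACTCA in 5.2% and either in 16.6%. These shares are per window, while members are counted per gene over 11 windows, of which *Txnrd1* has 3. Of the 9 members with a window, 4 had the core and 2 had TGACTCA, 5 having either. *Keap1*, *Nqo1*, *Slc7a11* and *Sqstm1* had no match, which says only that these letters are not in these windows, and *Hmox1* was not matched to a window. A match describes letters and is no evidence of binding. Positions count back from the last base before the start, numbered -1. In *Srxn1* (chr2:152105402-152105505, forward strand, between genes), TGAGTCA, the reverse complement of TGACTCA, stood at -102 and at -45. *Osgin1* (chr8:119437030-119437076, forward strand, in an intron of a longer *Osgin1* transcript) had TGACTCA at -97. *Nfe2l2* (chr2:75704875-75704913, reverse strand, under an exon of a noncoding gene on the other strand) had the core at -240. *Txnrd1* (chr10:82859094-82859142, forward strand, in an intron of its longest transcript) had the core on the opposite strand at -92, in 1 of its 3 windows. For genes on the reverse strand, *Nfe2l2* and *G6pdx* here, positions may be off by 1 base. The sequences read 5′ to 3′ on the strand of the gene, with the motifs in capitals.
Srxn1: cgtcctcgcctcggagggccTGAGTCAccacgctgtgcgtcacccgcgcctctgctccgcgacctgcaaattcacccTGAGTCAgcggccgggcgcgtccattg
Osgin1: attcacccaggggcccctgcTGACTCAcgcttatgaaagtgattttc
Nfe2l2: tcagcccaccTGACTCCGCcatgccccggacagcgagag
Txnrd1: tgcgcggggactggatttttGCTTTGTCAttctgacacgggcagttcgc
*G6pdx* also had the core, on the opposite strand at -57, within a 5′ exon of another of its transcripts, and *Srxn1* had it at 29 bases after the start. The sequences around these matches are not printed.

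Neither the transcription factor nor its sensor passed the test. *Nfe2l2* (ENSMUSG00000015839, chromosome 2 from 75675513 to 75704641) had 20.3, 23.7 and 23.2 FPKM in Control and 23.9, 25.5 and 24.2 in KSPAPN. The lowest KSPAPN library was just above the highest Control library. That gave a log2 fold change of 0.13 (95% interval -0.068 to 0.34, adjusted p = 0.469 from edgeR). It was 0.066 without Control replicate 1, the lowest library, 0.18 without Control replicate 2 and 0.20 with total counts only. *Keap1* (ENSMUSG00000003308, chromosome 9 from 21229730 to 21239361) encodes the sensor and ubiquitin ligase adaptor. It had 9.89, 9.64 and 8.89 FPKM in Control and 9.02, 7.82 and 7.49 in KSPAPN, where KSPAPN replicate 1 lay within the Control range. Its log2 fold change was -0.22 (95% interval -0.45 to 0.018, adjusted p = 0.304 from edgeR). After removal of the GC content and length trend it was -0.14. An antisense gene with 11 to 44 reads per library covers 10.9% of the exon bases of *Keap1*.

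*Nqo1* and *Hmox1*, the targets most often read as markers of the pathway, showed no difference beyond the spread between libraries. *Nqo1* (ENSMUSG00000003849, chromosome 8 from 107388225 to 107403206) encodes a quinone reductase that uses NADH or NADPH. Control libraries had 36.5, 41.5 and 33.7 FPKM and KSPAPN libraries 34.1, 37.9 and 36.8, all of the latter inside the Control range. The log2 fold change of -0.034 (95% interval -0.25 to 0.19, adjusted p = 0.89 from edgeR) turned to 0.052 without Control replicate 2, to 0.02 without KSPAPN replicate 1 and to 0.011 without the GC content and length trend. *Hmox1* (ENSMUSG00000005413, chromosome 8 from 75093621 to 75100589) encodes inducible haem oxygenase, which breaks haem down to biliverdin, iron and carbon monoxide. Its FPKM was 18.8, 23.2 and 20 in Control and 20.7, 23.4 and 18.2 in KSPAPN, and the groups covered nearly the same range. Its log2 fold change was 0.013, and the 95% interval of the fold change was 0.837 to 1.22 (adjusted p = 0.971 from edgeR). It was -0.053, -0.0035 and -0.081 without Control replicate 1, Control replicate 3 or KSPAPN replicate 2, 0.11, 0.025 and 0.10 without Control replicate 2, KSPAPN replicate 1 or KSPAPN replicate 3, and 0.14 after the GC content and length trend was removed.

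The enzymes of the thioredoxin branch were among the members with lower values in KSPAPN. *Txnrd1* (ENSMUSG00000020250, chromosome 10 from 82833951 to 82897712) encodes cytosolic thioredoxin reductase, a selenoprotein that keeps thioredoxin reduced at the expense of NADPH. It had 25.2, 30.6 and 25.7 FPKM in Control and 23.1, 22.4 and 22.1 in KSPAPN. All 3 KSPAPN libraries were below the Control libraries and closer to each other. The log2 fold change of -0.26 (95% interval -0.48 to -0.045) did not pass adjustment (adjusted p = 0.186 from edgeR). Without Control replicate 2, the highest library, it was -0.17. *Srxn1* (ENSMUSG00000032802, chromosome 2 from 152105516 to 152111376), whose promoter holds the motifs printed above, encodes sulfiredoxin, which repairs overoxidized peroxiredoxins. Control libraries had 20.2, 24.6 and 21.4 FPKM and KSPAPN libraries 19.3, 20.1 and 19.9, so that the groups were separated by a narrow gap. Its log2 fold change was -0.15 (95% interval -0.36 to 0.059, adjusted p = 0.426 from edgeR). Without Control replicate 2 it was -0.068, and without the GC content and length trend -0.087.

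*G6pdx* (ENSMUSG00000031400, chromosome X from 74409483 to 74429194) encodes glucose-6-phosphate dehydrogenase, the entry enzyme of the pentose phosphate pathway and a source of the NADPH that the reductases use. It had 11.5, 12.1 and 11.5 FPKM in Control and 13.9, 13.9 and 10 in KSPAPN, with KSPAPN replicate 3 below all Control libraries and the other KSPAPN libraries above them. On the log2 scale the difference was 0.11 (95% interval -0.18 to 0.40, adjusted p = 0.703 from edgeR). It was 0.042, 0.034 and 0.25 without KSPAPN replicate 1, 2 or 3, and 0.18 without the GC content and length trend. *Ikbkg*, on the other strand, covers 13.6% of the exon bases of *G6pdx* and had 780 to 1086 reads per library. The sources used here do not give strandedness, so reads of such overlaps cannot be told apart.

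*Slc7a11* (ENSMUSG00000027737, chromosome 3 from 49892526 to 50443614) encodes xCT, the light chain of the cystine and glutamate exchanger. It was nearly undetected, with 4, 1 and 8 reads in Control and 5, 5 and 5 in KSPAPN. The ratio of KSPAPN to Control reads, each per total count, was 1.05, and its exact 95% interval, which covers counting error alone, was 0.464 to 2.39. Ratios within these bounds are compatible with these reads under counting error, and the spread between pools is not in the interval. The smallest difference that could be detected was not computed.

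*Sqstm1* (ENSMUSG00000015837, chromosome 11 from 50199366 to 50210827) encodes p62, an adaptor of selective autophagy that binds KEAP1 and is itself a target of NRF2. It had 175, 183 and 163 FPKM in Control and 148, 152 and 149 in KSPAPN. Each KSPAPN library was below each Control library. The log2 fold change of -0.21 (95% interval -0.41 to -0.011) corresponded to a fold change of 0.865 and did not pass adjustment (adjusted p = 0.242 from edgeR). After removal of the GC content and length trend it was -0.13. *Mrnip*, on the other strand with 89 to 134 reads per library, covers 17.3% of its exon bases, against 9319 to 11533 reads on *Sqstm1*.

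*Osgin1* (ENSMUSG00000074063, chromosome 8 from 119434124 to 119446256), an oxidative stress induced growth inhibitor with a TGACTCA motif in the window printed above, had the largest difference among the 9 members tested. Its FPKM was 34.1, 24.3 and 23.0 in Control and 19.1, 19.6 and 15.6 in KSPAPN. All 3 KSPAPN libraries were below the Control libraries, and Control replicate 1 stood well above the other Control libraries. The mean was 27.1 ± 6.11 FPKM (SD, n = 3) in Control and 18.1 ± 2.18 in KSPAPN. This was a log2 fold change of -0.58 (95% interval -0.91 to -0.24), or 0.67-fold, with an adjusted p of 0.0791 from edgeR. DESeq2 gave an adjusted p of 0.0129, and edgeR without its filter on low counts 4.09e-05. Without the filter the standard error of *Osgin1* was 0.12, beside 0.15 in the main analysis, and that setting reflects less of a gene's own spread between pools. Over all alternatives to the main analysis the adjusted p lay between 4.09e-05 and 0.268. Without Control replicate 1 the log2 fold change was -0.38 (adjusted p = 0.268 from edgeR), and after the GC content and length trend was removed it was -0.41 (adjusted p = 0.138).

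**Figure D2:**
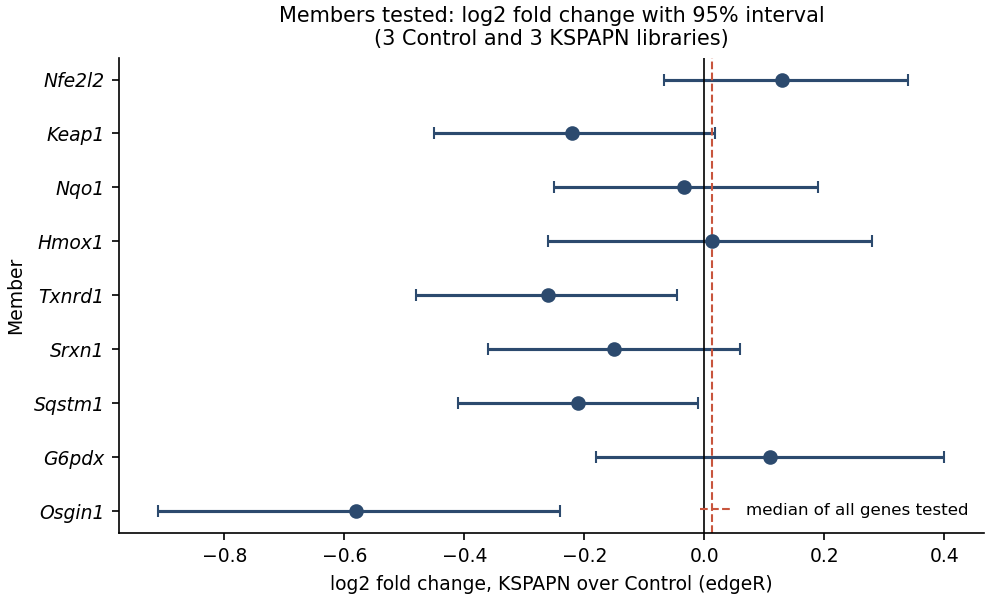
Log2 fold change of the 9 members tested (KSPAPN over Control, edgeR; points) with unadjusted 95% intervals (bars), beside 0 (solid line) and the median of all genes tested (0.012, dashed line). Intervals of *Txnrd1*, *Sqstm1* and *Osgin1* lie below 0, but 0 of the 9 passed adjustment, and the signs of *Nqo1* and *Hmox1* change with single libraries left out.

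Among the 9 members tested, 6 were lower and 3 were higher in KSPAPN by the sign of the log2 fold change. Of all 16017 genes tested, 7710 were lower and 8307 were higher. Among the signs of the members, those of *Nqo1* and *Hmox1* changed with single libraries left out. By CPM, 4 members were lower in all 3 KSPAPN libraries than in any Control library, where 13.1% of all genes tested were, and 1 was higher, where 11.4% were. The summed CPM of the 10 members was 1195, 1276 and 1138 in Control and 1076, 1077 and 1033 in KSPAPN, a sum in which *Sqstm1* has the largest share.

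**Figure D3:**
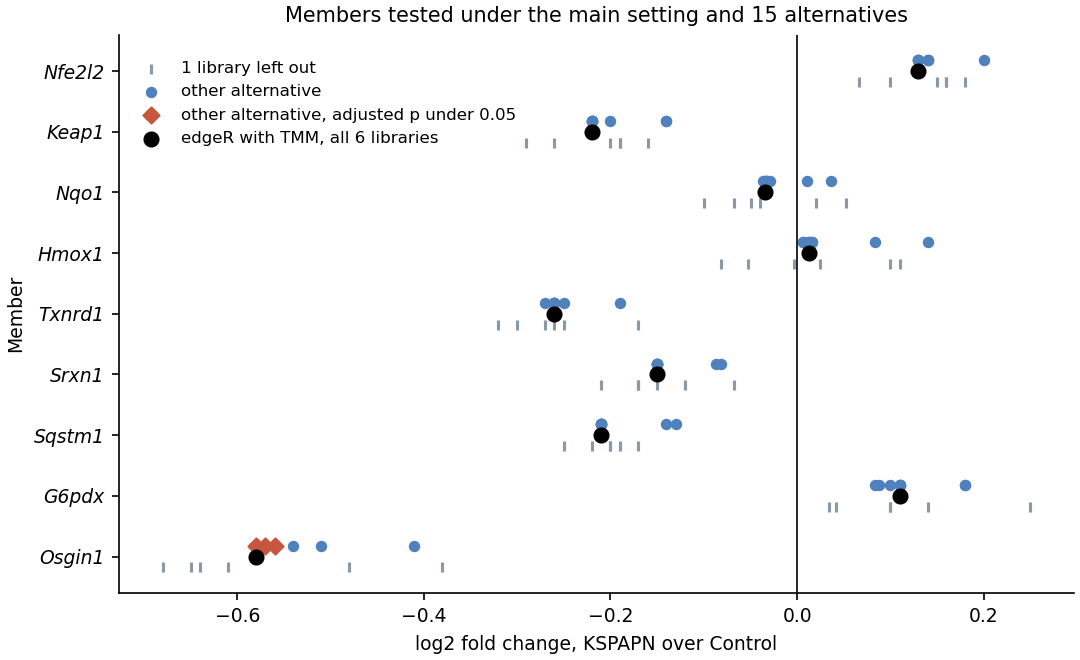
Log2 fold change (KSPAPN over Control) of the 9 members tested in the main analysis (black), with 1 library left out (ticks) and under the other alternatives (blue, or red diamonds where the adjusted p was under 0.05). The 3 red diamonds belong to *Osgin1*, while values of *Nqo1* and *Hmox1* fall on both sides of 0, and the other members keep their sign under these alternatives.

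Of 66 other genes of the pathway in 8 lists, 65 were tested. These lists were chosen with earlier results of these data known, so their counts are a description and no independent test. A place in a list does not make a gene a target of NRF2. At an adjusted p under 0.05, edgeR called 2 lower, beside 2.25% of all genes tested, and 0 higher, beside 0.393%. At an unadjusted p under 0.05, 16 were lower, beside 11.2% of all genes, and 3 were higher, beside 7.52%. DESeq2 called 6 lower and 0 higher after adjustment, beside 5.51% and 1.53%, and edgeR without its filter called 8 of 66 lower, beside 3.53%. limma called 0. The median log2 fold change of the 65 was -0.092, beside 0.012 for all genes. *Akr1a1* encodes an aldehyde reductase that uses NADPH. Its FPKM was 568, 619 and 477 in Control and fell to 323, 396 and 373 in KSPAPN, without overlap. edgeR gave a log2 fold change of -0.60 with a standard error of 0.12 (adjusted p = 0.034). *Cbs* encodes cystathionine beta-synthase, which starts the route from homocysteine to cysteine. Its FPKM fell from 85.3, 73.2 and 69.7 to 48.7, 60.3 and 51.6, also without overlap. Here edgeR gave -0.50 with a standard error of 0.11 (adjusted p = 0.0425). With each library left out the log2 fold change of *Akr1a1* was -0.69 to -0.51 and that of *Cbs* -0.60 to -0.41. Both were also called by DESeq2 (adjusted p = 0.000185 and 0.00261), by edgeR without its filter (1.68e-06 and 0.000171) and after removal of the GC content and length trend (0.0169 and 0.0242). Both calls were lost with some libraries left out. Across the table, where the main analysis called 424 genes, 39, 123 and 306 were called without Control replicate 1, 2 or 3. Without KSPAPN replicate 1, 2 or 3 these were 734, 281 and 66. Without Control replicate 1, Control replicate 2 or KSPAPN replicate 3 the adjusted p of *Akr1a1* was 0.163, 0.126 and 0.142, and that of *Cbs* 0.196, 0.0957 and 0.183. It was 0.0546 for *Akr1a1* without KSPAPN replicate 2, and for *Cbs* 0.0701 without Control replicate 3 and 0.0555 without KSPAPN replicate 1. limma on log2(FPKM + 1) gave 0.0889 and 0.0844, log2(FPKM + 0.1) gave 0.0904 and 0.0847, and total counts only gave 0.0666 for *Cbs*. Over all alternatives the adjusted p was at most 0.163 for *Akr1a1* and 0.196 for *Cbs*.

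No other gene of the 8 lists was called in the main analysis, and the medians of the lists varied. Regulators and partners of NRF2 had a median log2 fold change of 0.00031 over 12 genes, 6 higher and 6 lower. Of these, *Nfe2l1*, a related factor, had a mean of 47.3 FPKM, *Cul3*, the scaffold of the KEAP1 ligase, 26.1, and *Mafg*, a small MAF partner, 23.1. The log2 fold changes were 0.16, 0.16 and -0.25, with adjusted p from edgeR of 0.356, 0.501 and 0.157. NADPH supply had a median of -0.11 over 7 genes, of which *Me1* (149 FPKM), *Taldo1* (122) and *Idh1* (119) were the most abundant. Their log2 fold changes were -0.16, -0.11 and -0.31. *Pgls*, an enzyme of the pentose phosphate pathway, had 22.4, 17.8 and 21.4 FPKM in Control and 17.9, 13 and 11.6 in KSPAPN, with KSPAPN replicate 1 just inside the Control range. Its log2 fold change of -0.53 had an adjusted p of 0.115 from edgeR, 0.0312 from DESeq2, 0.000228 without the filter and 0.0105 without KSPAPN replicate 1, in a range up to 0.364 over all alternatives. In the thioredoxin system 5 of 7 genes were lower, 4 of them at an unadjusted p under 0.05, where 11.2% of all genes were, with a median of -0.21. *Txn1*, thioredoxin itself, had 205, 233 and 185 FPKM in Control and 163, 163 and 176 in KSPAPN. Those KSPAPN values were all below Control, with a log2 fold change of -0.31 (adjusted p = 0.142 from edgeR). *Prdx1*, a peroxiredoxin and the most abundant of this list at 293 FPKM, and *Txnip*, an inhibitor of thioredoxin at 101 FPKM, had log2 fold changes of 0.11 and -0.10.

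Haem breakdown and ferritin had a median of -0.15 over 7 genes. *Fth1*, the ferritin heavy chain, was the most abundant gene named here, at 3637 FPKM. It had 3837, 4101 and 4036 FPKM in Control and 3308, 3385 and 3155 in KSPAPN, with each KSPAPN library below Control and a log2 fold change of -0.28 (adjusted p = 0.186 from edgeR). DESeq2 called it lower (adjusted p = 0.0467), and over all alternatives its adjusted p was up to 0.536. *Ftl1*, the ferritin light chain (788 FPKM), and *Slc48a1*, a haem transporter (57.2 FPKM), had log2 fold changes of -0.22 and -0.15. *Hmox2*, the constitutive haem oxygenase, had 21.7, 25 and 20.9 FPKM in Control and 28.2, 27.3 and 25.9 in KSPAPN, without overlap. Its log2 fold change of 0.27 (adjusted p = 0.165 from edgeR) was 0.36 after removal of the GC content and length trend, the 1 alternative that called it (adjusted p = 0.0488, in a range up to 0.438 over all alternatives). Quinone, carbonyl and epoxide enzymes had a median of -0.055 over 12 of 13 genes tested. Besides *Akr1a1* at 460 FPKM, *Esd* (98.4) and *Ephx1* (23.2), an epoxide hydrolase, were the most abundant, with log2 fold changes of -0.13 and 0.10. Cystine uptake and cysteine supply had the lowest median of the 8 lists, -0.36 over 6 genes, 4 of which were lower at an unadjusted p under 0.05, beside 11.2% of all genes. *Slc3a1*, a subunit of the cystine transporter of the proximal tubule brush border, had 182, 178 and 147 FPKM in Control and 117, 144 and 131 in KSPAPN, with a log2 fold change of -0.36 (adjusted p = 0.114 from edgeR). It was called by DESeq2 (adjusted p = 0.0497) and by edgeR without its filter (0.0174), in a range up to 0.375 over all alternatives. *Cth*, which acts after *Cbs* in cysteine synthesis, was at 70.4 FPKM with a log2 fold change of -0.021.

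Partners of p62 in selective autophagy had a median of -0.0058 over 8 genes. *Gabarapl1* (316 FPKM) and *Gabarap* (165 FPKM) encode ATG8 proteins of the autophagosome, with log2 fold changes of -0.11 and -0.0047. *Map1lc3a*, another gene of this family, had 86.3, 86.1 and 73.7 FPKM in Control and 68.2, 54.4 and 54.6 in KSPAPN. Its values did not overlap between groups, and the log2 fold change of -0.47 had an adjusted p of 0.0676 from edgeR, 0.0126 from DESeq2, 0.00143 without the filter and 0.0136 without KSPAPN replicate 1. After removal of the GC content and length trend it was -0.18 (adjusted p = 0.395, the highest over all alternatives). Efflux transporters had a median of -0.045 over 6 genes, with 0 at an unadjusted p under 0.05. *Abcc2*, at 47.5 FPKM the most abundant of them, exports conjugates across the apical membrane of the proximal tubule. It had a log2 fold change of -0.076, *Abcc5* (6.11 FPKM) of 0.13 and *Abcc4* (6.06 FPKM) of -0.013.

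**Figure D4:**
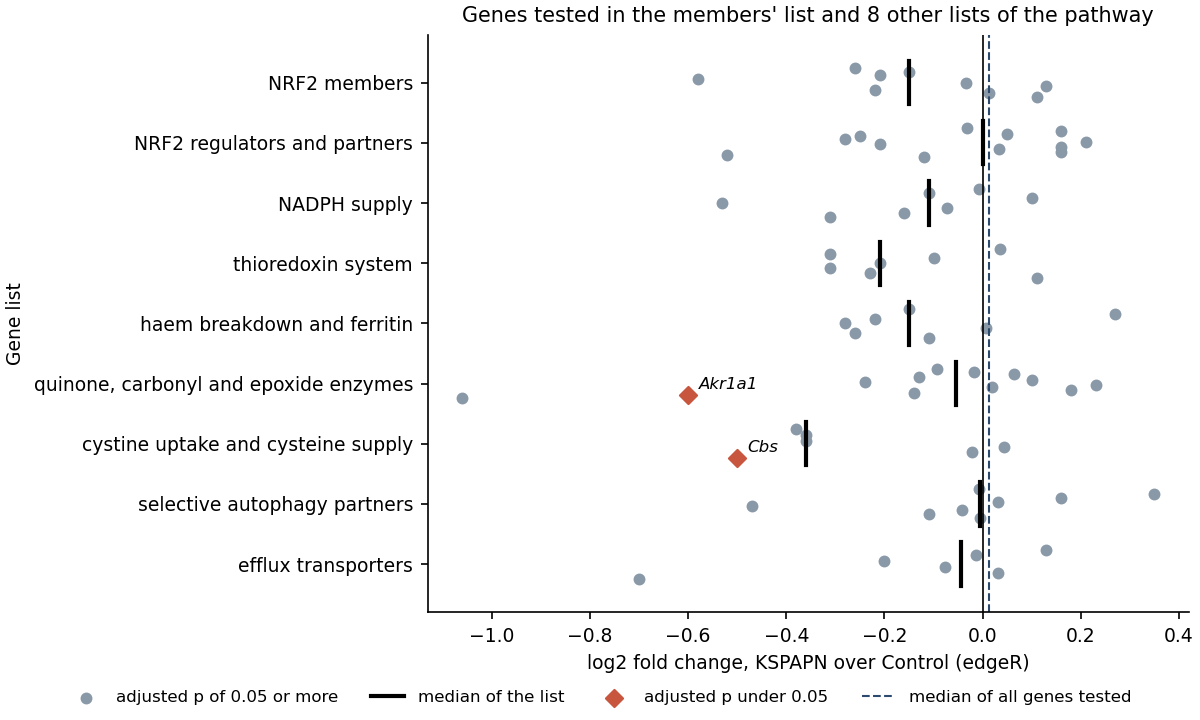
Log2 fold change (KSPAPN over Control, edgeR) of each gene tested in the members' list and in 8 other lists of the pathway, with the median of each list (black bar) and of all genes tested (0.012, dashed line). *Akr1a1* and *Cbs* (red diamonds) passed an adjusted p of 0.05, and the list medians lie between -0.36 and 0.00031.

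Markers of the proximal tubule had lower summed values in all 3 KSPAPN libraries. Their summed CPM over 6 genes was 10861, 9741 and 9193 in Control and 8551, 8126 and 8911 in KSPAPN. Of the 6, 5 were lower, with a median log2 fold change of -0.22, 1 was called lower by edgeR and 0 were at 0. *Slc34a1* was the most abundant at 1149 FPKM, with a log2 fold change of -0.15. The gene called was *Slc22a6*, an organic anion transporter named after its values were seen, at -0.46 (adjusted p = 0.0388 from edgeR). In whole tissue, fewer cells of a type and less RNA per cell cannot be told apart, and the part of this difference in the values of the members was not tested. Of the other marker lists, that of adipocytes did not overlap either, with a summed CPM of 38, 40 and 38.2 in Control and 46.1, 41 and 58.8 in KSPAPN. Of its 6 genes 3 had enough reads for the test and 0 were called. *Fabp4*, its most abundant gene at 9.05 FPKM and one that endothelium also expresses, had a log2 fold change of 0.34 (adjusted p = 0.209 from edgeR). The adipocyte gene *Lep* had 1 read in KSPAPN replicate 1 and 0 in the other 5 libraries. The remaining lists overlapped between groups in summed CPM. These sums were 4275 to 4763 in Control and 4425 to 5227 in KSPAPN for thick limb and distal tubule, 552 to 734 and 488 to 951 for collecting duct, 177 to 271 and 247 to 348 for podocytes, and 157 to 190 and 148 to 190 for endothelium. For macrophages they were 132 to 136 and 109 to 148, for red blood cells 89.2 to 162 and 110 to 218, for hepatocytes 91.8 to 190 and 62.5 to 93.6, and for tubular injury 634 to 753 and 634 to 752. The most abundant genes were *Podxl* (31.8 FPKM), *Emcn* (9.05), *Csf1r* (15.1), *Hbb-bs* (92.4), *Ttr* (82.5) and *Spp1* (307) in the lists from podocytes to tubular injury. KSPAPN replicate 1 stood apart in *Aqp2*, at 537 FPKM where the other 5 libraries had 227 to 356. Of the genes tested, 4 of 4 were higher for podocytes, 3 of 4 for endothelium, 3 of 7 for macrophages and 4 of 5 for red blood cells, with 0 called by edgeR or DESeq2. The genes of the other lists also differed in direction. Of the 4 genes of thick limb and distal tubule, *Slc12a1*, a transporter of the thick limb, was called higher by edgeR (log2 fold change 0.52, adjusted p = 0.0437). *Slc12a3*, a transporter of the distal convoluted tubule, was at -0.36 (adjusted p = 0.207), *Umod* at -0.045 and *Calb1* at 0.14. In the collecting duct list 2 genes were higher, *Aqp2* (log2 fold change 0.19) and *Atp6v1g3* (0.14), and 2 were lower, *Aqp3* (-0.32) and *Slc4a1* (-0.71). *Slc4a1*, an anion exchanger of intercalated cells and red blood cells, had 10, 9.2 and 8.47 FPKM in Control and 3.96, 7.77 and 5.25 in KSPAPN, without overlap. Its adjusted p was 0.0893 from edgeR, 0.0137 from DESeq2, 4.74e-06 without the filter and 0.0162 without KSPAPN replicate 2, in a range up to 0.303 over all alternatives. In the list of tubular injury 4 of 5 genes tested were higher and *Clu* was lower, at 47.7, 50.1 and 49.1 FPKM in Control and 43.6, 33.6 and 33.8 in KSPAPN, without overlap. For its log2 fold change of -0.40 the adjusted p was 0.101 from edgeR, 0.0331 from DESeq2, 0.00821 without the filter and 0.0112 without KSPAPN replicate 1, in a range up to 0.292. Of the 6 hepatocyte genes, *Ttr* was called lower (log2 fold change -1.17, adjusted p = 0.0388 from edgeR) and has most of the summed CPM. *Alb* had 111, 100 and 47 reads in Control and 15, 191 and 213 in KSPAPN (log2 fold change 0.55, adjusted p = 0.716). *Ahsg* had 1, 0 and 1 reads in Control and 2, 14 and 15 in KSPAPN, and *Serpina3k* 0, 3 and 3 and then 0, 23 and 34. These 3 genes were thus highest in KSPAPN replicates 2 and 3, and their part in the values of the members was not tested. *Apoa1* and *Fgb* had log2 fold changes of -0.38 and 0.13, with 3 to 20 reads per library. The calls of *Slc22a6*, *Slc12a1* and *Ttr* were each lost without Control replicate 1 (adjusted p = 0.149, 0.194 and 0.177), Control replicate 2 (0.137, 0.142 and 0.11) or KSPAPN replicate 3 (0.139, 0.0958 and 0.149). Those of *Slc22a6* and *Slc12a1* were also lost without Control replicate 3 (0.0846 and 0.0765) or KSPAPN replicate 2 (0.0936 and 0.0904). Across the table these settings called 39 to 306 genes, beside 424 in the main analysis. limma on log2(FPKM + 1) gave 0.0697, 0.0775 and 0.109 for the 3 genes, total counts only 0.0521 for *Slc22a6* and 0.0567 for *Ttr*, and removal of the GC content and length trend 0.0851 for *Slc12a1*.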

How the data were processed

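RNA of whole kidneys was enriched with oligo(dT) beads and sequenced on a NovaSeq instrument. The authors deposited unnormalized read counts per gene together with their own FPKM, and state neither the library total nor the gene length behind the FPKM. The submitters' processing notes name STAR 2.5, TopHat, HTSeq 0.6.1, DESeq2 and edgeR without their roles. The sources used here do not give the genome build, annotation, strandedness or library batches. Of 54532 identifiers, 54495 were matched to GENCODE M21 for symbols and coordinates.

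Counts were compared with edgeR 4.0.16 in R 4.3.3 (TMM normalization, a filter with minimum count 10 and minimum total 15, and a two-sided quasi-likelihood test). The p-values of all 16017 genes tested were adjusted by the Benjamini-Hochberg method, and the common dispersion was 0.0225. CPM are counts scaled to library size after TMM normalization. Intervals of 95% come from the standard error and the moderated degrees of freedom, and that of the read ratio of *Slc7a11* is an exact binomial interval. That interval covers counting error alone, since reads were summed over the libraries of each group and the spread between pools is left out. Reads also carry no molecular identifiers, so repeated copies of the same molecule cannot be told apart. The main method and several alternatives were tested on simulated counts, with the same dispersion for all genes and larger changes than those of the members. Fits without the filter or with a library left out were not among them.

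Alternatives were DESeq2 1.42.0, RLE factors, total counts only, normalization without mitochondrially encoded genes and *Adipoq*, no filter on low counts, limma 3.58.1 on log2 FPKM with pseudocounts of 1 and 0.1, the replicate number as a block and each library left out in turn. Without the filter, standard errors of well-counted genes named here were nearly alike. They were 0.11 for *Ttr*, 0.11 for *Pgls* and 0.13 for *Slc4a1*, where the main analysis had 0.25, 0.16 and 0.20. Adjusted p from that setting therefore reflect little of a gene's own spread between pools. A further alternative, chosen after seeing the data, took out of each library its trend with GC content and length of the longest transcript (natural splines with 5 degrees of freedom).

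The members and lists were chosen with earlier results of these data known. Named were all 10 members, other genes of the pathway with an adjusted p under 0.05, the 3 with the highest mean FPKM in each list, *Adipoq*, and the most abundant gene of each marker list. Outside this rule, and after their values were seen, the text also names *Slc22a6*, *Slc12a1*, *Slc12a3*, *Calb1*, *Aqp3*, *Atp6v1g3*, *Slc4a1*, *Clu*, *Lep*, the other genes of the hepatocyte list, *Pgls* and *Hmox2*, and *Mrnip* and *Ikbkg* as genes that overlap members. Promoter windows came from RefSeq (GRCm38.p6). Python 3.11.15, pandas 2.3.3 and matplotlib 3.10.9 were used for tables and plots. Raw reads were not used here.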

Additional observations from a re-analysis of the deposited data

How the results depend on the processing

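Of 135 log2 fold changes of single members under 15 alternatives, 125 kept their direction and their side of the threshold, 3 passed it and 7 changed sign. That of *Nqo1* (-0.034) was 0.036 with total counts only, where the median of all genes moved from 0.012 to 0.081, 0.011 after removal of the GC content and length trend (chosen after seeing the data), and -0.10 to 0.052 with each library left out. That of *Hmox1* (0.013) was -0.081 to 0.11 with each library left out and 0.14 after removal of that trend. Neither was past the threshold in any setting run. The 3 that passed were those of *Osgin1*, with 1 member called by DESeq2, 1 without the filter on low counts and 1 with the replicate number as a block. With each library left out, 0 members were called. The median of the members (-0.15) was -0.082 with total counts only, in the same shift, -0.087 after removal of the GC content and length trend, where that of all genes was 0.0089, and -0.19 to -0.068 with each library left out. The 424 genes called became 975 with DESeq2, 266 with total counts only, 1339 without a filter, 128 and 119 with limma at pseudocounts of 1 and 0.1, and 39 to 734 with each library left out. The highest of these, 734, was without KSPAPN replicate 1. The cause was not tested. The replicate block gave 929 genes. The correlation of deviations from the group means was 0.0537, 0.154 and 0.173 for pools of the same number, and each library correlated best with its own number, which is a hint from the data and not from the design. The labels do not say that a number pairs the pools, and the block changed no other member's call. Of the 65 other genes of the pathway tested it called 4 lower, *Pgls* (adjusted p = 0.0352) and *Map1lc3a* (0.0251) besides *Akr1a1* and *Cbs*. At 28 reads in all, depth limits what can be said of *Slc7a11*.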
